A study of Mus musculus with 32 samples.

Results

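Ezetimibe given with a high-cholesterol diet (HC+EZE) was compared with the same diet alone (HC) in livers of female ApoE3Leiden mice. The comparison takes every array labelled with each treatment, 8 HC+EZE and 8 HC arrays, which is 16 of the 32 arrays of the study. It runs over 8853 named genes, those with a probe detected on 8 or more of the 32 arrays (deposited detection value over 0.95). That filter did not use the treatment labels, but a gene can pass it through the group in which it is high. The other 16 arrays hold livers of the same strain on the same diet, given rosuvastatin with ezetimibe (HC+RSV+EZE, 8 arrays) or rosuvastatin alone (HC+RSV, 8 arrays). ApoE3Leiden is a transgenic strain in which a dysfunctional human apolipoprotein E slows the clearance of lipoprotein remnants, so cholesterol feeding raises plasma cholesterol. All groups therefore carry the transgene and the cholesterol-rich food, and mice without either are not analysed here. Doses, duration of treatment, age and the hour of liver collection are not given in the sources used here. Each array holds the RNA of 1 liver.

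Values are log2 intensities after background correction and quantile normalization, differences are HC+EZE minus HC with their standard error (SE), and p-values come from limma, adjusted over all 8853 genes by the method of Benjamini and Hochberg. Mean raw intensity was 186 ± 46.4 on HC+EZE arrays and 201 ± 37.8 on HC arrays (SD, n = 8 each). HC+EZE arrays had 11478 ± 457 detected probes and HC arrays 11928 ± 699, a difference of -450.1 (two-sided exact permutation test, p = 0.146). Of 16 hepatocyte markers 15 were measured, and their mean log2 level lay between 12.23 and 12.48 on HC+EZE arrays and between 12.12 and 12.60 on HC arrays. Replicate 1 of HC+EZE and replicates 1 and 8 of HC were among the 4 arrays of the study with the lowest mean correlation with the others. The arrays lay on 6 chips that each held both groups, but their place on the chip ran with the drug: HC+EZE arrays sat at position F (4) or G (4), HC arrays at A (6) or B (2). Array position and ezetimibe can therefore not be told apart in this comparison. The number of arrays limits the precision, with a median SE of 0.16 for a difference.

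Ezetimibe blocks NPC1L1, the sterol transporter of the intestinal brush border, so less dietary cholesterol reaches the liver in chylomicron remnants. Hepatocytes sense sterols through SCAP, which is held in the endoplasmic reticulum by INSIG proteins when sterols are plentiful and otherwise carries SREBP-2 to the Golgi, where it is activated to induce cholesterol synthesis and uptake. The liver also runs a circadian clock: CLOCK and BMAL1 (gene Arntl) switch on genes through E-boxes, among them their own repressors of the PER, CRY and CIART families, and outputs such as DBP drive daily rhythms of metabolism.

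In all, 4 genes passed the test in livers of HC+EZE mice: Ciart, Usp2 and Coq10b rose and Insig2 fell, 0.0452% of the genes tested. At an unadjusted p under 0.05 stood 322 genes (3.64%), 129 of them higher (1.46%) and 193 lower (2.18%), and the median difference of all genes was -0.002. Ciart encodes a repressor of CLOCK and BMAL1. Its level was 6.71, 7.09 and 7.68 (lowest, median and highest) on HC+EZE arrays, against 4.82, 5.55 and 5.85 on HC arrays. Every HC+EZE array lay above every HC array, and Ciart rose by 1.69 ± 0.29 (3.22-fold, adjusted p = 0.0110). On single chips the difference ran between 0.86 and 2.23. A separate Ciart probe differed by 1.72 ± 0.27.

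Usp2 encodes a deubiquitinating enzyme whose liver transcript is under clock control. It stood at 8.52, 8.89 and 9.30 on HC+EZE arrays, against 6.24, 6.93 and 7.29 on HC arrays. The groups did not overlap, and Usp2 rose by 2.04 ± 0.38 (4.10-fold, adjusted p = 0.0163), with a difference of at least 1.53 on each of the 6 chips. The other kept Usp2 probes were dim, were detected on 9 and 10 of the 32 arrays, and differed by 0.29 ± 0.12 and 0.18 ± 0.10. Coq10b encodes a mitochondrial protein that binds coenzyme Q and is needed for respiration. Its values were 8.19, 8.72 and 9.74 on HC+EZE arrays and 7.26, 7.71 and 8.17 on HC arrays. The lowest HC+EZE array only just cleared the highest HC array. Coq10b rose by 1.14 ± 0.21 (2.21-fold, adjusted p = 0.0163), by 0.47 to 1.69 on single chips, and its other kept probe differed by 0.86 ± 0.18.

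Insig2 encodes one of the INSIG anchors that keep SCAP and SREBP in the endoplasmic reticulum. Its level was 9.45, 9.80 and 10.23 on HC+EZE arrays, against 10.28, 10.71 and 11.08 on HC arrays. All HC+EZE arrays lay below all HC arrays, and Insig2 fell by 0.93 ± 0.18 (1.90-fold lower, adjusted p = 0.0163). It was lower on 6 of 6 chips, by a log2 difference between -1.23 and -0.61. Its other kept probes differed by -0.94 ± 0.24 and -1.75 ± 0.50, the dimmer of them detected on 6 of 8 HC+EZE and 8 of 8 HC arrays. In whole liver, fewer cells of a type and less RNA per cell cannot be told apart. With chip as a block the fit again called 4 genes (0.0452%), with 168 genes higher (1.90%) and 232 lower (2.62%) at an unadjusted p under 0.05. Array position as a covariate ended all 4 calls (limma, 0 genes past the threshold and 1047 at an unadjusted p under 0.05), with the Ciart difference at 0.26 ± 1.16, as did the authors' own normalized values (limma, 0 past it and 337 unadjusted), while Coq10b, Usp2 and Insig2 did not pass with scaling to equal medians, Usp2 without background correction and Insig2 with the mean of its probes. The count was 2 without HC replicate 1, where Usp2 and Insig2 did not pass, and 8 without HC replicate 5, and Insig2 also did not pass without HC+EZE replicate 2 or 8.

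**Figure D1:**
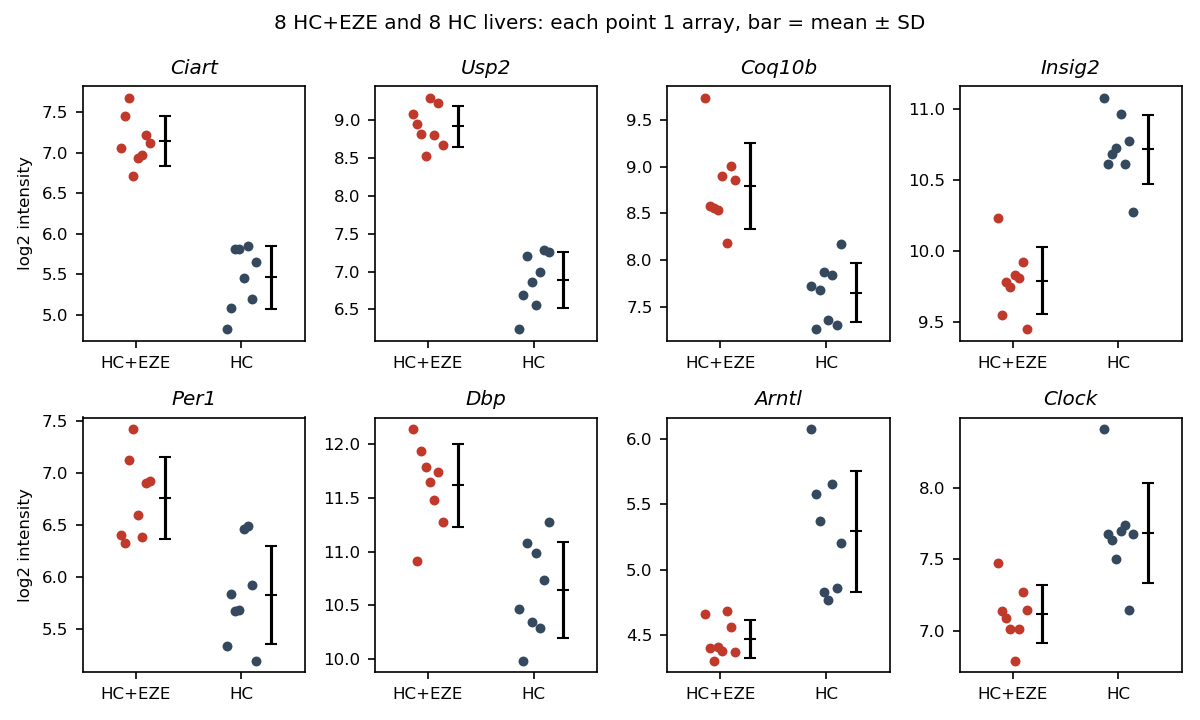
Log2 intensity (y axis) of 8 genes on the 8 HC+EZE (red) and 8 HC (dark blue) arrays; each point is 1 array and the bar beside it the mean ± SD. The HC+EZE points of Ciart, Usp2 and Coq10b all lie above the HC points, those of Insig2 and Arntl all lie below, and for Per1, Dbp and Clock the groups overlap.

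The promoters of Ciart, Coq10b and Per1 are shown because they hold the E-box, the element through which CLOCK and BMAL1 act on the clock's own repressors. They were picked for holding it from the 24 genes with the smallest p, while the windows of the other called genes, Usp2 and Insig2, hold none. Each window covers 250 bases before to 50 bases after 1 start listed for the gene, which can have other starts, is written 5′ to 3′ on the gene's strand (RefSeq, mouse GRCm38.p6), and has each CACGTG E-box in capitals. The Ciart window is chr3:95882179-95882478 (minus strand), the Coq10b window chr1:55052520-55052819 (plus strand) and the Per1 window chr11:69098699-69098998 (plus strand).
Ciart: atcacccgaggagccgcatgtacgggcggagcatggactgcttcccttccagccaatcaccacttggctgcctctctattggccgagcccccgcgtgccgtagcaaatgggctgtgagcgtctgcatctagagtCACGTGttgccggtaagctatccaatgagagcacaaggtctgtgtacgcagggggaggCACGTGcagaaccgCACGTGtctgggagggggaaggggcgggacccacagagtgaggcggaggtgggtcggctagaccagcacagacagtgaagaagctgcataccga
Coq10b: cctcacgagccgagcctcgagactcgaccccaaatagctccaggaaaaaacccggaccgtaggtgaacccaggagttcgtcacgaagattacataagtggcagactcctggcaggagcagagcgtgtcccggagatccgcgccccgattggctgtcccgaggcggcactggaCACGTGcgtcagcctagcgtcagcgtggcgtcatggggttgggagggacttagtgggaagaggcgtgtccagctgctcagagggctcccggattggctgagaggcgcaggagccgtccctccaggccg
Per1: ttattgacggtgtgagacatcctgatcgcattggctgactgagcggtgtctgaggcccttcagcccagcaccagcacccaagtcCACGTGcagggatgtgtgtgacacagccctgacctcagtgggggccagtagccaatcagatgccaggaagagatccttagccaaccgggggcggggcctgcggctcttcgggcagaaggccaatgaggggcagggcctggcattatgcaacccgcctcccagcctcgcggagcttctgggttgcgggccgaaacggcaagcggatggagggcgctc

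The Ciart window holds 3 E-boxes, which begin 116, 58 and 44 bases before the start. Coq10b has 1 that begins 78 bases before its start, and Per1 has 1 at 166 bases, while a second window listed for Per1 has none. CACGTG, which reads the same on both strands, was found in 7.15% of the 32851 mouse promoter windows and in a window of 856 of 7219 genes tested that had one (11.9%). Among the 24 genes with the smallest p, 3 of the 8 higher genes with a window held it (Ciart, Coq10b and Per1), as did 0 of the 12 lower genes. The core of the ROR element, TAGGTCA, searched on both strands, was present in 1 of the 12 lower genes, Arntl, in 0 of the 8 higher ones and in 2.58% of genes tested. A match is a string of letters in this window, and binding was not measured.

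Among clock genes, activators at an unadjusted p under 0.05 were lower and repressors higher, although only Ciart among the repressors and Usp2 among the outputs passed over all genes. Of 3 measured activators, 2 were lower and 0 higher at an unadjusted p under 0.05, against 2.18% and 1.46% of all genes, with a list median of -0.57. Arntl stood at 4.31, 4.41 and 4.69 on HC+EZE arrays, where it was detected on 2 of 8, and at 4.77, 5.29 and 6.08 on HC arrays, where it was detected on 8 of 8. No HC+EZE array reached the lowest HC array, yet the difference of -0.82 ± 0.21 did not pass (adjusted p = 0.201). Only 3 genes of 8853 lay wholly below HC in this way (0.0339%): Insig2, Arntl and Bag3. Clock, the partner of BMAL1, was at 6.79, 7.11 and 7.47 on HC+EZE arrays and 7.14, 7.68 and 8.42 on HC arrays. These ranges overlapped, with a difference of -0.57 ± 0.16 (adjusted p = 0.399). Rora, which activates Arntl, differed by -0.06 ± 0.21.

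Of 10 measured repressors (list median 0.15), 4 were higher and 0 lower at an unadjusted p under 0.05, against 1.46% and 2.18% of all genes. Beside Ciart these were the 3 Period genes, whose products hold CLOCK and BMAL1 in check. Per1 was at 6.33, 6.75 and 7.42 on HC+EZE arrays and 5.19, 5.76 and 6.49 on HC arrays. The groups overlapped narrowly; Per1 differed by 0.94 ± 0.21 (adjusted p = 0.134), by 0.66 to 0.99 on each of 6 chips, and by 0.77 ± 0.20 with a second probe. Per3 differed by 0.73 ± 0.23 and was detected on 8 of 8 HC+EZE but 3 of 8 HC arrays, and Per2 differed by 0.61 ± 0.23. The REV-ERB genes, which repress Arntl, had differences no larger than their SE, 0.03 ± 0.19 for Nr1d1 and 0.21 ± 0.21 for Nr1d2.

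Of 14 measured clock outputs, 5 were higher and 1 lower at an unadjusted p under 0.05, against 1.46% and 2.18% of all genes. The list median was 0.08, and Usp2 was among the higher. Dbp, a transcription factor driven directly by the clock, had 10.91, 11.70 and 12.14 on HC+EZE arrays and 9.98, 10.60 and 11.27 on HC arrays. It differed by 0.98 ± 0.33 with overlapping groups (adjusted p = 0.890). Upp2, a liver uridine phosphorylase, differed by 1.11 ± 0.40, and its 3 other probes by 0.95 to 1.18. Nampt, the rate-limiting enzyme of NAD salvage, differed by 0.54 ± 0.18, while a dim second probe differed by -0.06 ± 0.19. Alas1, which starts heme synthesis, differed by 0.46 ± 0.18. None of these 4 outputs passed over all genes.

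**Figure D2:**
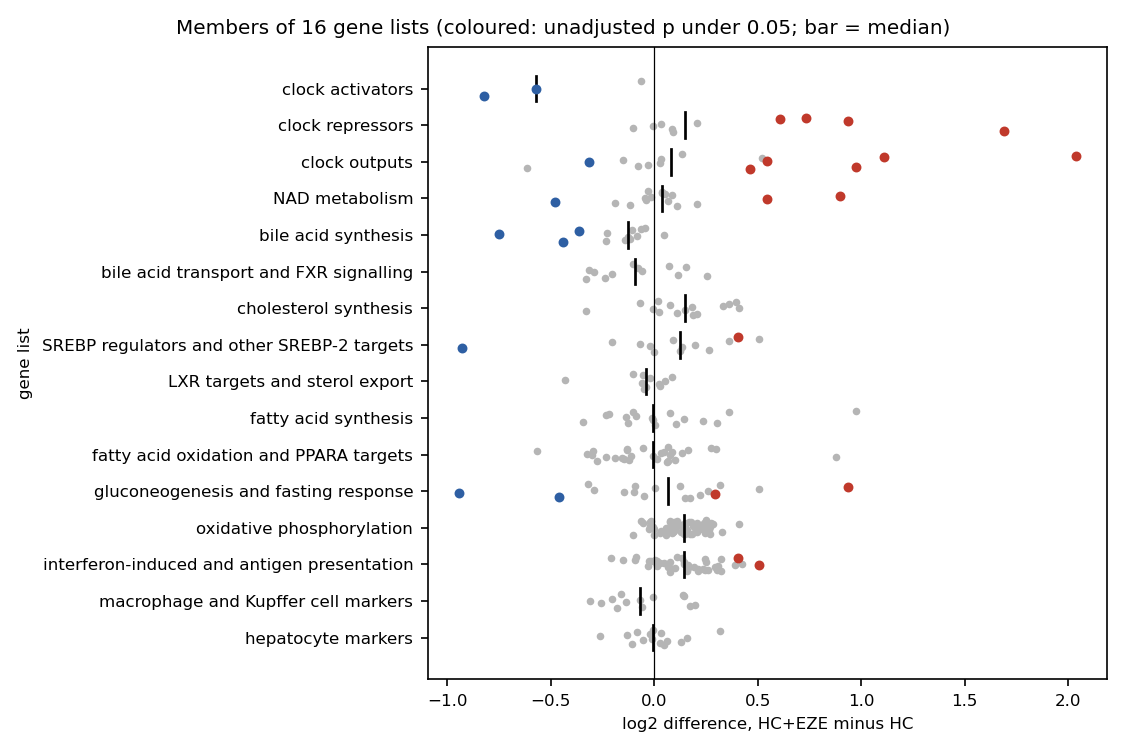
Log2 difference, HC+EZE minus HC (x axis), of each measured member of 16 gene lists (y axis); each point is 1 gene, coloured where its unadjusted p was under 0.05 (red higher, blue lower), and the black bar is the list median. Coloured clock outputs run from -0.31 to 2.04, the coloured activators are both below 0 and the coloured repressors all above 0, while cholesterol synthesis and LXR targets have no coloured point.

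The 24 genes with the smallest p, the 4 called genes included, held 10 higher and 14 lower members, and 20 of them pointed the same way on 6 of 6 chips, as did 158 genes higher (1.78%) and 225 lower (2.54%) among all 8853. These 24 were picked by this p, so their differences are given as a description. Among the higher, Nmrk1, a nicotinamide riboside kinase of NAD synthesis, had 6.85, 7.59 and 8.07 on HC+EZE arrays and 6.18, 6.78 and 6.999 on HC arrays. Its groups overlapped slightly and its difference of 0.90 ± 0.19 was the nearest to the threshold outside it (adjusted p = 0.0688). Of 16 measured genes of NAD metabolism (median 0.04), Nmrk1 and Nampt were higher at an unadjusted p under 0.05 and Kynu, kynureninase of tryptophan breakdown, was lower at -0.48 ± 0.18. Of all genes 1.46% were higher and 2.18% lower at that p. Nrg4, a secreted ligand of the ErbB4 receptor, differed by 0.86 ± 0.20. Pcsk4, a proprotein convertase best known from sperm, differed by 0.99 ± 0.23 and by 0.41 to 0.63 with 3 further probes. Gnat1, a transducin subunit known from the retina, differed by 0.91 ± 0.22, with 2.22 on chip 4 and at most 0.88 on the other 5. Slc5a6, the multivitamin transporter for biotin and pantothenate, differed by 0.57 ± 0.16. Cxcr3, a chemokine receptor of T and NK cells, differed by 0.55 ± 0.13 and was detected on 8 of 8 HC+EZE and 4 of 8 HC arrays. Of the T, B and NK cell markers 8 of 22 were measured, with a median difference of 0.14 and 1 member at an unadjusted p under 0.05, and their part in the Cxcr3 value was not tested.

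Among the lower, Clpx, the unfoldase of the mitochondrial ClpXP protease, had 7.29, 7.37 and 7.95 on HC+EZE arrays and 7.73, 8.44 and 9.63 on HC arrays. It differed by -1.01 ± 0.24 (adjusted p = 0.162) and by -1.11 ± 0.21 with a second probe. Bag3, a co-chaperone of HSP70 proteins, was at 8.38, 8.78 and 9.09 on HC+EZE arrays and 9.15, 9.37 and 9.72 on HC arrays, with no overlap and a difference of -0.68 ± 0.18 (adjusted p = 0.237). Some of the lower genes encode enzymes of amino acid metabolism. Ddc, aromatic amino acid decarboxylase, differed by -0.91 ± 0.23, with -0.98 to -0.80 on the 6 chips, and Gldc, the glycine decarboxylase of the glycine cleavage system, by -0.86 ± 0.24. In that list of 33 measured genes, 3 were lower and 0 higher at an unadjusted p under 0.05, beside 2.18% and 1.46% of all genes. The list median was -0.04, and 0.005 without the 4 arrays with the lowest correlations. The third lower gene was Bhmt, which remethylates homocysteine, at -0.75 ± 0.26.

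The remaining lower genes of the 24 had varied roles. Spon2, a secreted matrix protein, differed by -1.04 ± 0.28 and Lrfn3, a leucine-rich repeat adhesion protein, by -0.97 ± 0.25, and both differed most on chip 4 (-2.29 and -1.93). Pnkd differed by -0.77 ± 0.21, and by -0.35 ± 0.13 with a dim second probe. Nedd4l, a ubiquitin ligase that acts on ion channels, differed by -0.63 ± 0.16, and Trim2, another ubiquitin ligase, by -0.59 ± 0.16. Chka, choline kinase of phosphatidylcholine synthesis, differed by -0.55 ± 0.13 and Napepld, which makes N-acylethanolamines, by -0.48 ± 0.13, while a second dim Napepld probe differed by 0.09 ± 0.11. Both were near the detection limit: Chka was detected on 1 of 8 HC+EZE and 6 of 8 HC arrays, Napepld on 1 and 7. Each was also detected on 3 HC+RSV and 2 HC+RSV+EZE arrays. Without the HC arrays neither reached the 8 arrays that the filter asks for. Chka and Napepld were thus tested only through the group in which they were high, and their differences are given as a description. None of these 7 passed over all genes.

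**Figure D3:**
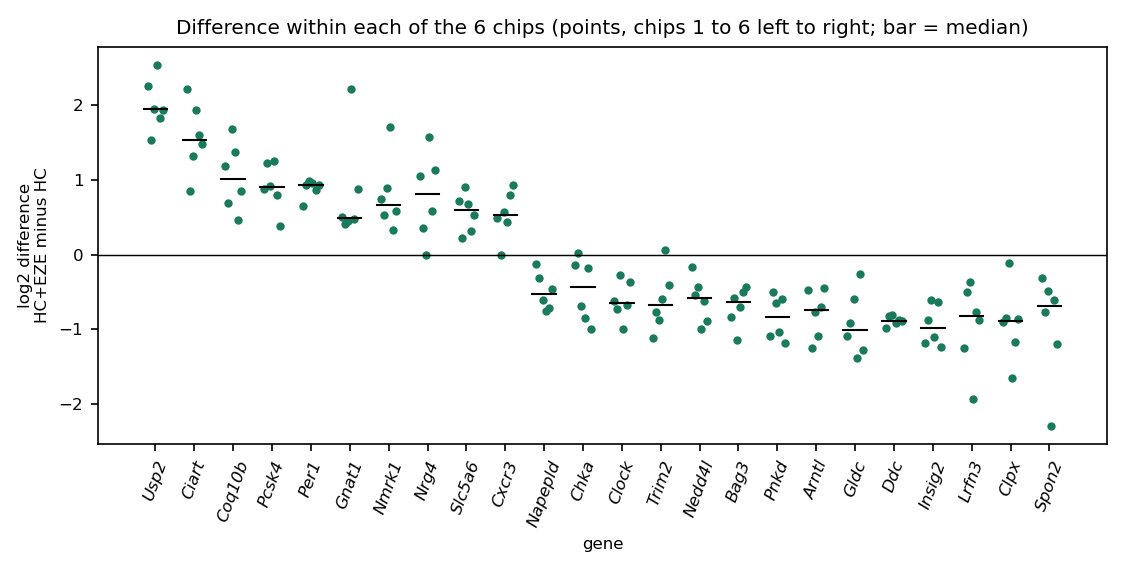
Log2 difference, HC+EZE minus HC (y axis), within each of the 6 chips for the 24 genes with the smallest p (x axis); points are chips 1 to 6 from left to right and the bar is their median. Ciart, Usp2 and Coq10b lie above 0 and Insig2 below 0 on every chip, and Ddc has the narrowest range, -0.98 to -0.80.

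Apart from Insig2, no measured gene of sterol sensing, synthesis or export passed the test. Of 15 measured cholesterol synthesis genes, 0 were higher and 0 lower at an unadjusted p under 0.05, although 12 lay above 0, against 49.6% of all genes. The list median was 0.15, and 0.078 without the 4 arrays with the lowest correlations. Sqle, squalene epoxidase of that pathway, ranged from 5.60 to 7.90 on HC+EZE arrays (median 6.81) and from 5.20 to 7.99 on HC arrays (median 5.91). Individual livers of both groups thus spread over more than 2 log2 units, and the difference of 0.40 ± 0.50 did not pass. Insig1, the INSIG paralog that SREBP-2 induces, differed by 0.26 ± 0.34 and Srebf2, which encodes SREBP-2, by 0.09 ± 0.16. Among 13 regulators and other targets of SREBP, Tmem97, a sterol-regulated membrane protein that binds NPC1, was the 1 higher at an unadjusted p under 0.05 (0.40 ± 0.17) and Insig2 the 1 lower. Npc1l1, the gene of the transporter that ezetimibe blocks, was not among the genes tested.

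The oxysterol receptor LXR induces genes that export sterols into bile. Of 11 measured LXR targets and exporters 0 were higher and 0 lower at an unadjusted p under 0.05 (median -0.04). Abcg5 and Abcg8, which together form the canalicular sterol exporter, differed by 0.02 ± 0.19 and -0.06 ± 0.27. In bile acid synthesis 3 of 13 measured genes were lower and 0 higher at an unadjusted p under 0.05, against 2.18% and 1.46% of all genes. Below 0 lay 12 of the 13, with a median of -0.13, while 49.6% of all genes lay above 0. Cyp8b1, the sterol hydroxylase that sets the share of cholic acid, had 10.65, 11.26 and 11.69 on HC+EZE arrays and 11.21, 12.03 and 12.67 on HC arrays. Its difference of -0.75 ± 0.25 did not pass (adjusted p = 0.876). Hsd3b7, which acts early in the pathway, differed by -0.36 ± 0.15 and Acox2, which shortens the side chain, by -0.44 ± 0.20, whereas Cyp7a1, the rate-limiting enzyme, differed by -0.08 ± 0.27. Without the 4 arrays with the lowest correlations the list median was -0.02, with 2 members lower and 0 higher at an unadjusted p under 0.05, against 2.02% and 1.54% of all genes.

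Of 23 measured genes of coenzyme Q and mitochondrial quality, 2 were higher, Coq10b among them, and 1, Clpx, was lower at an unadjusted p under 0.05 (median 0.03). Of all genes 1.46% were higher and 2.18% lower at that p. In the glucose, glycogen and fat lists that follow no gene passed over all genes. Of 18 measured genes of gluconeogenesis and fasting, 2 were higher and 2 lower at an unadjusted p under 0.05 (median 0.06). G6pc, glucose-6-phosphatase, had 8.60, 10.42 and 11.93 on HC+EZE arrays and 10.51, 11.13 and 11.72 on HC arrays, and differed by -0.94 ± 0.43. Its spread was 1.06 among HC+EZE livers and 0.38 among HC livers (SD, n = 8 each), wide enough for the groups to overlap. Foxo1, a transcription factor of the fasted state, differed by 0.29 ± 0.14, Ddit4, an inhibitor of mTORC1, by -0.46 ± 0.22. In glycogen metabolism Gys2, liver glycogen synthase, differed by 0.60 ± 0.28 and Ppp1r3c, a glycogen-targeting phosphatase subunit, by -0.62 ± 0.24. Plin5, a lipid droplet coat protein, differed by -0.55 ± 0.22, the only 1 of 14 measured droplet genes at an unadjusted p under 0.05. It was lower on 4 chips and higher on 2, and a second Plin5 probe differed by -0.23 ± 0.14. Fatty acid synthesis (17 measured) and fatty acid oxidation (29 measured) had 0 members at an unadjusted p under 0.05 in either direction and medians of -0.01 and -0.01.

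Of all genes 49.6% lay above 0. Oxidative phosphorylation had 59 of 68 measured members above 0 and a median of 0.14, with 0 at an unadjusted p under 0.05. Without the 4 arrays with the lowest correlations its median was -0.05. Interferon-induced and antigen presentation genes had 35 of 42 above 0 and a median of 0.14, which was 0.13 without those 4 arrays. Their 2 members at an unadjusted p under 0.05 were both higher. They were Tap1, the peptide transporter of antigen presentation, at 0.40 ± 0.14, and Ifitm2, an antiviral membrane protein, at 0.51 ± 0.25. In HC+RSV+EZE minus HC+RSV the list median was 0.02, with Tap1 at -0.04 ± 0.14 and Ifitm2 at 0.28 ± 0.25. In HC+EZE minus HC, 1.46% of all genes were higher and 2.18% lower at an unadjusted p under 0.05. Psmb10, an immunoproteasome subunit, differed by 0.61 ± 0.22 in a proteasome list of 34 that held 1 higher and 2 lower members at an unadjusted p under 0.05 and a median of 0.03. Of 26 measured inflammatory signalling genes 3 were lower and 0 higher at an unadjusted p under 0.05 (median -0.09), beside 2.18% of all genes lower. Among them was Egr1, an immediate early gene, at -0.79 ± 0.38. With chip as a block 2 were lower, Egr1 not among them, and without the 4 arrays 1 was lower. Among temperature- and feeding-timed genes, Cirbp, a cold-inducible RNA-binding protein, differed by 0.49 ± 0.22 and Dnajb1, a heat-induced chaperone, by -0.37 ± 0.15.

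Markers of liver cell types had list medians between -0.07 and 0.25 and no called gene. Hepatocyte markers had a median of -0.01, and 13 of 21 macrophage and Kupffer cell markers were measured, with a median of -0.07 and 0 at an unadjusted p under 0.05. The mean level of the macrophage markers ran from 8.70 to 9.45 on HC+EZE arrays and from 8.15 to 10.12 on HC arrays. Of 15 endothelial markers 9 lay above 0 and 6 below, with a median of 0.05. At an unadjusted p under 0.05, 2 were higher and 0 lower, beside 1.46% and 2.18% of all genes. The higher were Clec4g, a lectin of sinusoidal endothelium, by 0.23 ± 0.09, and Stab1, a scavenger receptor of the same cells, by 0.28 ± 0.12. All 8 measured blood cell markers lay above 0 (median 0.25), against 49.6% of all genes, with 0 at an unadjusted p under 0.05. Stellate cell and matrix markers (16 measured) had a median of -0.004 and cholangiocyte markers (6 of 11 measured) one of -0.02. Without the 4 arrays with the lowest correlations the median was 0.33 for clock repressors, -0.24 for lipid droplet genes and 0.16 for blood cell markers. It turned sign for LXR targets (0.03), the proteasome (-0.04), gluconeogenesis (-0.00016), amino acid metabolism (0.005), fatty acid synthesis (0.03) and hepatocyte (0.05), stellate (0.02) and cholangiocyte (0.05) markers.

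The same drug was also given on top of rosuvastatin, in livers that share no array with the comparison above but share its 6 chips and the layout of positions. There, HC+RSV+EZE against HC+RSV, 5 genes passed (0.0565%), and at an unadjusted p under 0.05 stood 273 genes higher (3.08%) and 376 lower (4.25%). Of the 24 genes with the smallest p without the statin, 23 had the same sign with it, 20 reached an unadjusted p under 0.05 and 4 passed, whereas 64.9% of all genes had the same sign. Usp2 differed by 2.12 ± 0.38 with the statin and 2.04 ± 0.38 without it, and Ciart by 1.71 ± 0.29 and 1.69 ± 0.29. These SEs are equal because the fit shares the variance of a gene among the 4 groups, yet HC+RSV livers varied more. Usp2 ran from 4.76 to 8.78 in HC+RSV and from 6.24 to 7.29 in HC. Ciart ran from 4.41 to 6.99 in HC+RSV and from 4.82 to 5.85 in HC. The highest HC+RSV values thus passed the lowest of HC+EZE (8.52 for Usp2, 6.71 for Ciart) and of HC+RSV+EZE (8.12 and 6.59). Coq10b, at 0.94 ± 0.21, and Insig2, at -0.82 ± 0.18, did not pass with the statin (adjusted p = 0.0731 and 0.0551). Per1 passed there at 1.21 ± 0.21 (adjusted p = 0.00985).

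Whether the effect of ezetimibe differed with the statin was tested as an interaction. No gene passed (limma, 0 of 8853, and 152 or 1.72% at an unadjusted p under 0.05). Among the 24 genes, 3 had an unadjusted interaction p under 0.05, Napepld among them. Cxcr3 differed by 0.05 ± 0.13 with the statin and 0.55 ± 0.13 without it (unadjusted interaction p from limma 0.0121), and Napepld by 0.03 ± 0.13 and -0.48 ± 0.13 (0.0113). Bag3 averaged 8.91 ± 0.33 in HC+RSV+EZE and 9.04 ± 0.56 in HC+RSV, a difference of -0.13 ± 0.18 (unadjusted interaction p from limma 0.0333). The 24 genes were picked for a small p in HC+EZE minus HC, which enters the interaction, so a smaller difference with the statin is favoured by that choice.

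**Figure D4:**
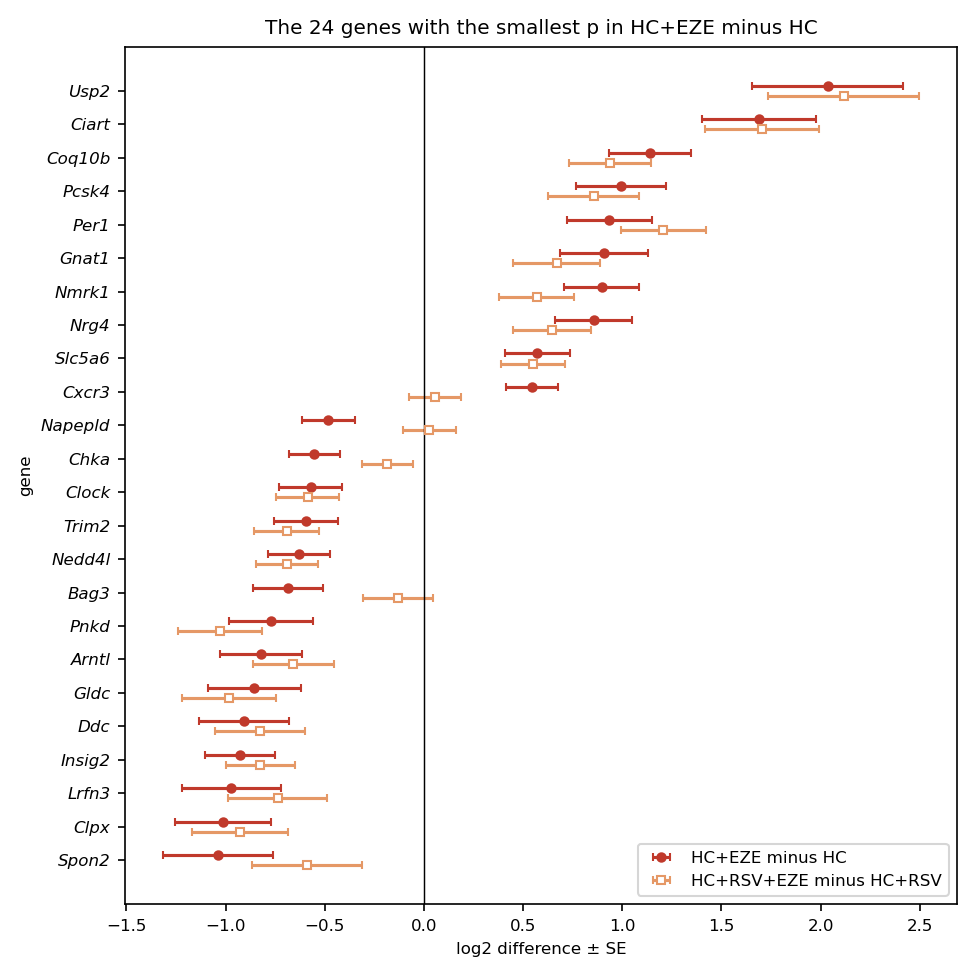
Log2 difference ± SE (x axis) for the 24 genes with the smallest p in HC+EZE minus HC (y axis): filled red circles are HC+EZE minus HC and open orange squares HC+RSV+EZE minus HC+RSV. For 23 of 24 genes both lie on the same side of 0; for Cxcr3, Napepld and Bag3 the squares lie near 0.

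Position on the chip varied to some extent within groups, which gives values at a fixed treatment. In HC, position B minus position A on the 2 chips that held both was 1.05 and 0.57 for Usp2, 0.37 and 0.56 for Ciart, -0.31 and -0.34 for Insig2 and -0.42 and 0.91 for Coq10b. In HC+EZE, position G minus F on the 2 chips that held both was 0.13 and -0.28 for Usp2, 0.16 and -0.33 for Ciart, -0.31 and -0.10 for Insig2 and -0.73 and 0.27 for Coq10b. On both chips the HC livers at B thus stood nearer to HC+EZE than their neighbours at A for Usp2, Ciart and Insig2. The same held for Arntl (B minus A -1.21 and -0.37) and Dbp (0.26 and 1.29). Coq10b had no common direction, nor had Per1 (0.59 and -0.65) or Clock (-1.27 and 0.002). Both HC pairs held an array with one of the lowest mean correlations, replicate 1 at A on chip 4 and replicate 8 at B on chip 5. So did an HC+EZE pair, with replicate 1 at F on chip 3. The part of array quality in these values was not tested. Among HC+RSV livers, none of which had received ezetimibe, 4 lay at C and 4 at B. Per1 ranged from 5.88 to 6.76 at C and from 5.49 to 5.78 at B, and Clock from 7.03 to 7.39 at C and from 7.83 to 8.31 at B. The 8 genes examined were the called genes and chosen clock genes, and the share of all genes without overlap between C and B was not computed. Of these 8, Per1 and Clock did not overlap between C and B, and their C livers lay on the side of the HC+EZE values. The other 6 overlapped: Ciart ranged from 5.26 to 6.99 at C and from 4.41 to 5.50 at B, Insig2 from 9.61 to 11.27 at C and from 10.60 to 11.01 at B, and Coq10b from 7.16 to 8.71 at C and from 6.95 to 8.02 at B, as did Usp2, Arntl and Dbp. Their part in the differences above cannot be told apart from that of ezetimibe.

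**Figure D5:**
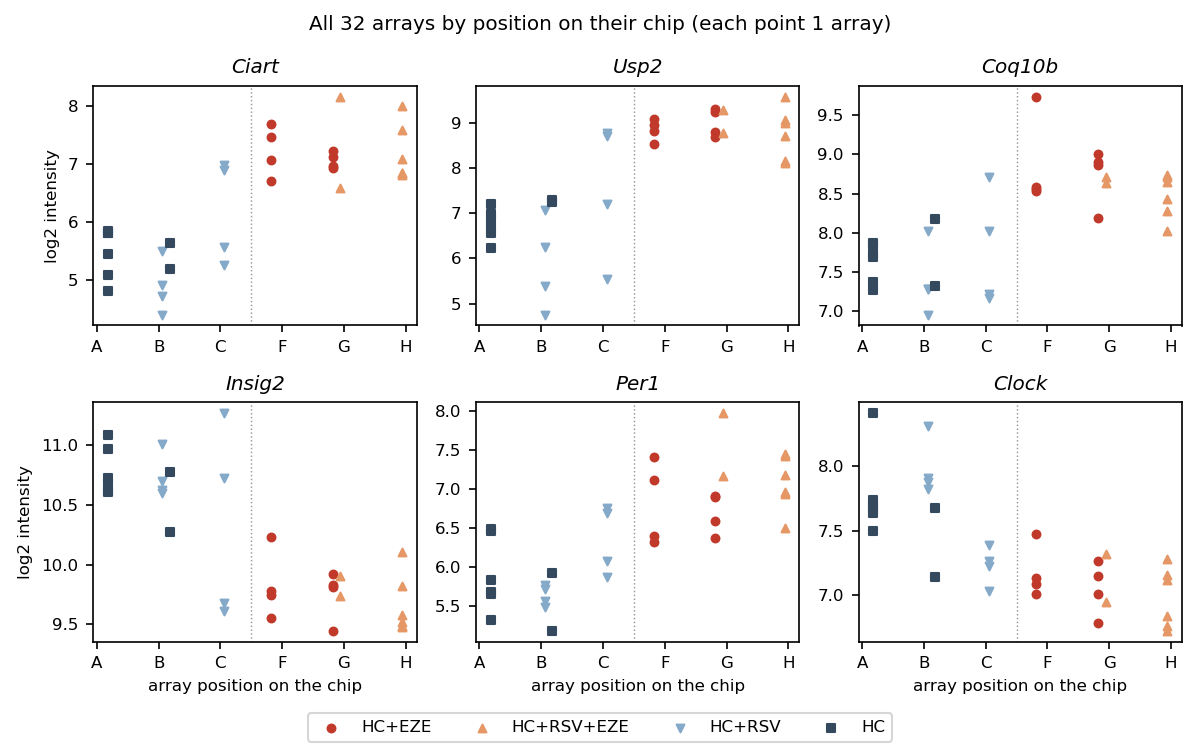
Log2 intensity (y axis) of 6 genes on all 32 arrays by array position on the chip (x axis, A to C and F to H, the dotted line marking the gap); HC+EZE are red circles, HC+RSV+EZE orange triangles, HC+RSV light blue inverted triangles and HC dark squares. Arrays with ezetimibe lie right of the line and arrays without it left; HC+RSV arrays at C reach the levels of the right side for some livers, as for Ciart at 6.99.

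Which genes followed the called genes from liver to liver was described by correlating values over the 32 arrays after removal of the group means, without a test. Points share chips and positions. Usp2 was the gene most like Ciart (r = 0.844), followed by Acy1 (0.763), Pcsk4 (0.746), Zfyve21 (0.733) and Neu2 (0.707). Dbp was among the 5 most like Usp2 (0.726). Coq10b was most like Dnajb6 (0.753), a chaperone, and Per3 (0.718). Insig2 was most like Slc30a10 (0.738), a manganese exporter, and Cyp2f2 (0.695), a cytochrome P450 of periportal hepatocytes.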

How the data were processed

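Liver RNA of 32 mice was measured on Illumina bead arrays. The authors deposited an intensity per probe and array, not normalized between arrays, with a background already taken off, since values lie below 0. A detection value, a fraction from 0 to 1, was deposited for each intensity, and 1 minus it was used as a detection p. A second deposited table holds log2 values for 15505 of the 25697 probes, and limma is the tool named for it in the submitters' processing notes. The background step and the choice of those probes are not given in the sources used here.

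Here limma 3.58.1 (R 4.3.3) corrected the intensities with its normal-exponential model (detection p, offset of 16) and quantile normalized them, after which log2 was taken. Kept were probes with a detection value over 0.95 on at least 8 arrays (12844, of which 818 had no gene name), and the brightest kept probe stood for its gene, which left 8853 genes. A linear model with 4 group means was fitted with lmFit and eBayes over the 32 arrays (28 residual degrees of freedom, median residual SD 0.316). Benjamini-Hochberg adjustment ran over all genes, with a threshold of 0.05. No 2 arrays held identical values. Livers are individual per the labels, and p-values reflect both animals and arrays.

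Named were all genes past the threshold, the 24 with the smallest p, a fixed set of sterol and clock genes, and the leading members (4 at most) of described lists at an unadjusted p under 0.05; some such members are not reported here. The comparison, the 42 lists (742 of 953 genes measured) and the rules were chosen with earlier results of these data known. Gene symbols are those of the platform annotation, brought up to date by Entrez ID for 14548 of 14557 named probes. The fit was tested on simulated data. Alternatives covered background correction, normalization, probe filters, the probe rule, the authors' log2 values, blocks for chip or replicate number, weights for arrays, a trend in variance, a fit of only the groups compared, and arrays left out. Array position as a covariate was added after seeing the data.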

Additional observations from a re-analysis of the deposited data

Results flagged for a closer look

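Each group of 8 arrays was searched for an array far from the other 7, in 3 measures of array quality and in the genes named. Of 122 groups of values searched, 15 held such an array, and chance alone gives about 1 in 20. In HC+EZE, replicate 1 had a mean correlation of 0.951 with the other arrays, below the rest of its group. The same array was far from its group for Gldc (10.38), Hsd3b7 (13.22), Acox2 (8.95), Gys2 (8.89), Foxo1 (7.59), Abcg8 (12.06), all above the other arrays, and for Ifitm2 (10.79), below them. Other HC+EZE arrays stood apart for Chka (replicate 6, 4.86), Napepld (replicate 2, 5.17), Cyp7a1 (replicate 5, 12.25), Nr1d1 (replicate 3, 7.83) and Ppp1r3c (replicate 5, 8.53, the lowest). In HC, replicate 1 was the highest array for Clock (8.42) and for Ppp1r3c (11.30). None of the 4 called genes had such an array in either group.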

How the results depend on the processing

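The count of 4 called genes was 2 with scaling to equal medians, 0 with the authors' normalized values (limma, 337 at an unadjusted p under 0.05), 7 with only the groups compared in the fit, 10 with chip as a block when the 4 arrays with the lowest correlations were left out, and 0 with array position as a covariate (1047 unadjusted). It was 3 to 5 under the 10 other settings without the replicate number. With the replicate number as a block it was 8, with the Ciart difference at 1.69 and the detected probes at -450.1; same-numbered arrays had correlations from -0.09 to 0.76 and 2 of 8 HC+EZE arrays were most like their own number, so the numbers were not taken as pairs. Leaving out 1 array gave 2 (without HC replicate 1) to 8 calls (without HC replicate 5), and an HC+EZE minus HC difference in detected probes of -588 to -352. The interaction had 0 calls under every setting run.

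Across settings other than leaving out 1 array, 39 of 959 values changed sign. With array position as a covariate, where groups and position hardly vary apart, the differences were Usp2 -1.02, Insig2 0.27, Nrg4 -0.14, Clpx 0.53, Cxcr3 -0.21, Gnat1 -0.91, Nedd4l 0.36, Arntl 0.24, Bag3 0.81, Lrfn3 1.497, Pnkd 1.38, Trim2 1.05, Gldc 1.33, Clock 1.33, Slc5a6 -0.36, Nampt -0.15, Cyp8b1 0.83, Dbp -0.93, Psmb10 -1.76, Ppp1r3c 2.06, Alas1 -0.76, Hsd3b7 1.16, Dnajb1 0.32, Stab1 -0.028, Cirbp -0.99, G6pc 1.96, Ddit4 0.49, Ifitm2 -0.054, Nr1d2 -0.88, Abcg5 -0.97. The SEs of these differences ran from 0.51 (Stab1) to 1.70 (G6pc), with 1.48 for Usp2 against 0.38 in the main fit, and none of these genes passed there. With equal medians the differences that changed sign were Srebf2 -0.044, Nr1d1 -0.13 and Abcg5 -0.086, with the mean of all probes Nr1d1 -0.027, with array weights Cyp7a1 0.088, without the 4 arrays Cyp7a1 0.15 and Abcg8 0.079, and, when chip was also a block, Cyp7a1 0.12 and Abcg8 0.085. Leaving out 1 array gave Abcg5 -0.11 to 0.13, Abcg8 -0.24 to 0.093, Nr1d1 -0.048 to 0.14 and Cyp7a1 -0.25 to 0.0099. The cause of these changes was not tested. Signal over background limits Arntl, Chka, Napepld, Cxcr3, Per3 and Ddit4, which were not detected on every array of both groups.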
